A study of Mus musculus with 6 samples.

Results

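The chemokine genes Ccl21a, Ccl21b, Ccl21c, Ccl19 and Ccl27a, the interleukin 11 receptor genes Il11ra1 and Il11ra2, and the chemokine receptor genes Ccr7 and Ccr10 were examined in mouse prefrontal cortex. The first 7 belong to a stretch of mouse chromosome 4 in which chemokine and receptor genes lie in several near-identical copies. They were chosen by gene name from the array's own probe labels, after a strain difference in Ccl21a was already known from these arrays. Of the 9 genes, 6 had a probe of that name, and these 6 genes were read by 8 of the 41174 probes, which stand for 27337 genes or transcripts. No probe carried the name Ccl21b, Ccl21c or Il11ra2.

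The study compared 3 male mice of the inbred strain C57BL/6J with 3 male mice of the inbred strain BTBR T+ Itpr3tf/J, called BTBR here, which is used as a model of autism-like behaviour. All 6 mice were 5 months old and untreated, and RNA of the whole prefrontal cortex of each mouse was hybridised to its own one-colour Agilent array. Title and genotype give the BTBR samples that strain, but the label for strain background names C57BL/6J for them too. The question the design asks is how expression in this region differs between the strains.

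CCL21 and CCL19 are secreted chemokines that share the receptor CCR7. They are made by lymphatic vessels and by the stroma of lymph nodes, and they guide T cells and dendritic cells into lymphoid tissue. CCL27 is a chemokine of skin keratinocytes that acts through CCR10, and its gene lies next to Il11ra1, which encodes the receptor subunit that binds interleukin 11 and signals with gp130.

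Which copy a probe reads decides how its value can be taken, so the middle of each probe is shown with the transcripts that the array's annotation lists for it. Each probe is 60 bases long, and 30 of them, bases 16 to 45, are given from 5′ to 3′ except for the first Ccl19 probe. For that probe bases 31 to 60 are given, with AATAAA, the letters of the polyadenylation signal, in capitals.
Ccl21a probe A_51_P129480: ctcacaggcaaagagggagctagaaaacag
Ccl19 probe A_51_P458258: actgcagagcttccAATAAAgccgcttggt
Ccl19 probe A_51_P458262: cccagacctaacccagccaagtctgtgcct
Ccl27a probe A_52_P618693: atagacagccactcccaagcaggctgctga
Il11ra1 probe A_51_P353946: gttctctgcatgtgtgtacagatgattgga
Il11ra1 probe A_51_P353947: tggaagtccacctgaggaatgtgtacagaa
Ccr7 probe A_51_P420229: gatgtcccggagattcaagacagagcttat
Ccr10 probe A_51_P395877: acgctgtcggctcatttttcccgaaagcct

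The Ccl21a probe cannot tell copies apart, since its annotation lists transcripts of 4 genes, Ccl21a, Gm10591, Gm13304 and Gm1987. The Ccl27a probe lists 4 as well, namely Ccl27a, Ccl27b, Gm13306 and Gm2506. Both Il11ra1 probes list Il11ra1 and Gm13305. The probes for Ccl19, Ccr7 and Ccr10 list their own gene only. No member probe shared a stretch of 20 bases with any other probe on the array, on either strand. AATAAA, searched on the probe strand only, is held by 1967 of the 41174 probes, which is 4.78%.

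The RefSeq gene table of GRCm38.p6 holds 6 protein-coding genes named Ccl21 or with that name as a synonym, Ccl21a, Ccl21b, Ccl21c, Ccl21d, Gm10591 and Gm13304. It holds 5 for Ccl19, of which 3 are pseudogenes. The annotation of the Ccl19 probes lists none of the other 4 copies, but whether the probes match them in sequence was not tested. The start regions that RefSeq gives for some of the copies were compared without gaps, over a limited range of shifts. The promoter windows of Ccl21a and Ccl21d were the same at 297 of 299 aligned bases, and those of Ccl27a and Ccl27b at 286 of 288. Ccl21a and Ccl21b agreed at 33.0% of bases and Il11ra1 and Il11ra2 at 31.7%, near the 31.3% of the different genes Ccl19 and Ccl21a. A gap, or a start listed at another place, would lower such a score. How alike Ccl21a and Ccl21b, or Il11ra1 and Il11ra2, are is therefore not read from it. The 250 bases before the start of Ccl21a, at chr4:42773992-42774241 on the minus strand of GRCm38.p6, and of Ccl21d, at chr4:41903363-41903612 on the plus strand, are given with the one base that differs in capitals, T142C counted from the first base of the Ccl21a window.
Ccl21a promoter: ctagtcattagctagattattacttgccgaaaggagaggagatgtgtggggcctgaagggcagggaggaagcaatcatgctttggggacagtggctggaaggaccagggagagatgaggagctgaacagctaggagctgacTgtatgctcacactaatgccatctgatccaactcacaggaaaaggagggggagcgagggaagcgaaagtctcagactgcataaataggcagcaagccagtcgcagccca
Ccl21d promoter: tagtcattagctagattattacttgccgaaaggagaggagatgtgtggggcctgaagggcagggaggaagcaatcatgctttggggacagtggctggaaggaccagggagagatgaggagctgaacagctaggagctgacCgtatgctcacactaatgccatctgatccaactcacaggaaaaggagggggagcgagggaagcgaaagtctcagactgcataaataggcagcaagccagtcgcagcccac

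Levels are log2 of the scanner's processed signal minus the 75th percentile of that array, so a probe at 0 was as bright as the 75th percentile. That percentile lay between 859 and 1607 signal units, 68.2% to 74.5% of probes were well above background, and no spot was saturated on any array. The lowest level measurable above background lay between -6.92 and -5.83. The arrays of replicates 1 and 2 of both strains shared a slide, and replicate 3 of both strains was on another. All 6 cortical neuron markers were well above background on every array, with a summed level of 6.08 to 6.30 in C57BL/6J and 6.23 to 6.30 in BTBR. Across all 30011 probes that were well above background on at least 3 arrays, limma called 1632 at an adjusted p below 0.05, 975 lower and 657 higher in BTBR.

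Ccl21a was the member with the widest gap between the strains. The 3 C57BL/6J mice had levels of 3.58, 3.62 and 2.61, and the 3 BTBR mice had levels of -2.92, -2.98 and -3.06. The strains lay far apart, and replicate 3 was the lowest of the C57BL/6J mice. In scanner units the spot gave 19149, 15340 and 7382 in C57BL/6J against 122, 109 and 142 in BTBR. The BTBR spots were still measured, since each lay 2.85 to 3.85 above the lowest measurable level of its own array. The means were 3.27 ± 0.57 and -2.99 ± 0.07 (SD, n = 3 each), a difference of -6.26 with a standard error of 0.28, so the BTBR signal was 1.31% of that in C57BL/6J. This difference was the 13th lowest of the 30011 probes. It was -6.55 within the slide of replicates 1 and 2, and -5.67 on the slide of replicate 3. In the authors' deposited matrix it was -4.94. Because the members were chosen with this strain difference known, it is given as a description and carries no test.

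Ccl19, the other CCR7 ligand of the locus, was lower in BTBR at both of its probes, by far less than Ccl21a. Probe A_51_P458258 read 0.65, 0.56 and 0.37 in C57BL/6J and -0.74, -0.78 and -0.68 in BTBR. Every BTBR value lay below every C57BL/6J value, and the BTBR arrays differed little from each other. The means were 0.53 ± 0.14 and -0.73 ± 0.05 (SD, n = 3 each), a difference of -1.26 with a standard error of 0.11, or 41.7% of the C57BL/6J signal. Probe A_51_P458262 read 0.82, 0.80 and 0.54 in C57BL/6J and -0.52, -0.77 and -0.58 in BTBR, again with no overlap. Its difference was -1.34 with a standard error of 0.13, or 39.4% of the C57BL/6J signal. The differences read by the 2 probes were 0.08 apart, less than either standard error. On the slide of replicate 3 they were -1.05 and -1.12, against -1.37 and -1.45 on the slide of replicates 1 and 2.

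**Figure D1:**
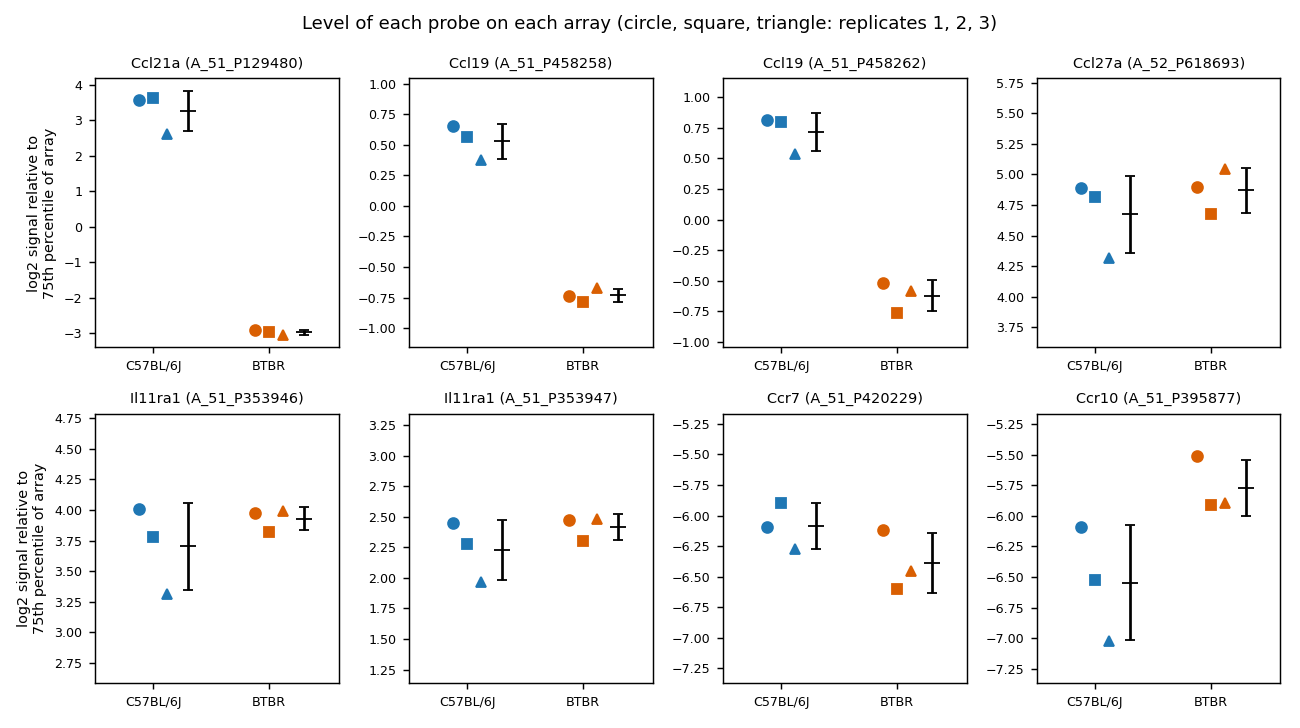
Level of each of the 8 probes on each array, as log2 signal relative to the 75th percentile of the array, with C57BL/6J in blue and BTBR in orange, replicates 1, 2 and 3 as circle, square and triangle, and the bar giving the mean and SD of 3 mice. Axis ranges differ between panels; Ccl21a lies between 2.61 and 3.62 in C57BL/6J and between -3.06 and -2.92 in BTBR, while Ccl27a and Il11ra1 overlap between strains.

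Ccl27a, the CCR10 ligand, read 4.89, 4.82 and 4.31 in C57BL/6J and 4.89, 4.68 and 5.04 in BTBR. The strains overlapped, and only replicate 3 of C57BL/6J stood below the rest. The means were 4.67 ± 0.31 and 4.87 ± 0.18 (SD, n = 3 each), and the difference of 0.20 had a 95% interval of -0.26 to 0.65. The sign depended on the slide, with -0.07 for replicates 1 and 2 and 0.73 for replicate 3. For the signal of this probe, which lists 4 genes, a fall of the size seen at Ccl19 lies outside this interval. A fall of a single copy was not measured.

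Il11ra1, the nearer of whose probes lies 476 bases from that of Ccl27a, also overlapped between strains. Probe A_51_P353946 read 4.01, 3.78 and 3.32 in C57BL/6J and 3.98, 3.82 and 3.99 in BTBR. Probe A_51_P353947 read 2.45, 2.28 and 1.96 in C57BL/6J and 2.47, 2.30 and 2.48 in BTBR. At both probes replicate 3 of C57BL/6J was the lowest array and the remaining values of the strains lay among each other. The differences were 0.23 with a 95% interval of -0.23 to 0.68, and 0.19 with a 95% interval of -0.18 to 0.55. They were 0.00 and 0.02 within the slide of replicates 1 and 2, and 0.68 and 0.52 on the slide of replicate 3.

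The receptors were close to the lowest measurable level. Ccr7, the receptor of CCL21 and CCL19, read -6.09, -5.90 and -6.27 in C57BL/6J and -6.12, -6.60 and -6.45 in BTBR, and it was well above background on 3 and 2 of these arrays. The strains overlapped, and the difference of -0.30 had a 95% interval of -0.71 to 0.10. Ccr10, the receptor of CCL27, read -6.09, -6.53 and -7.02 in C57BL/6J and -5.51, -5.91 and -5.89 in BTBR, and it was well above background on 2 arrays of each strain. The BTBR values were the higher ones without overlap, with a difference of 0.77 and a standard error of 0.25. With normexp background correction that difference was -0.17 and in the authors' deposited matrix it was 0.07, so no direction is given for Ccr10.

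**Figure D2:**
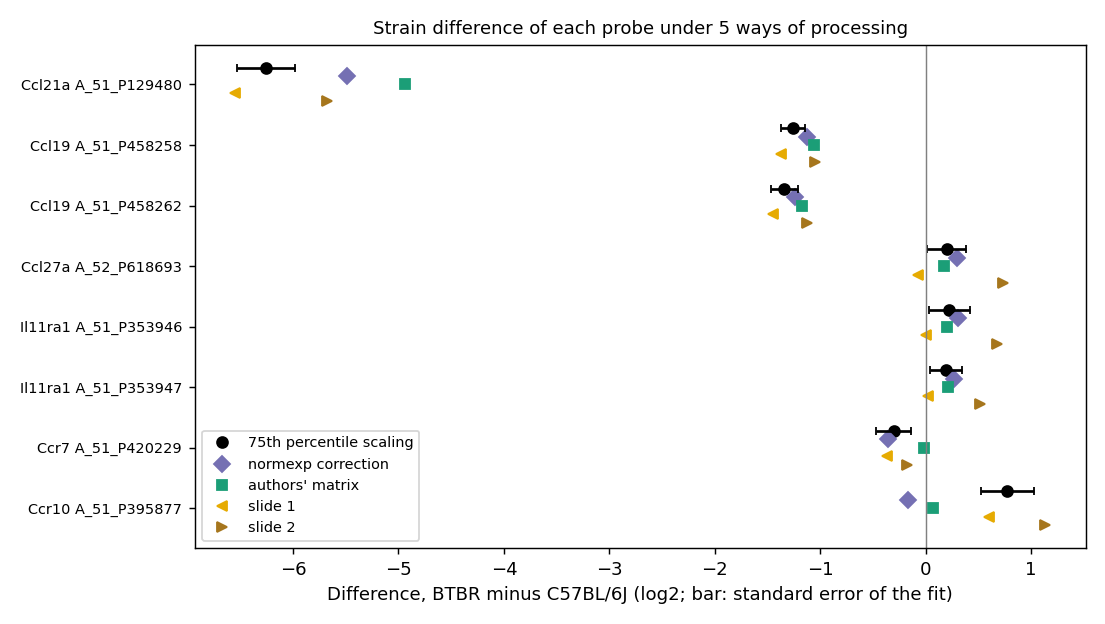
Difference between strains, BTBR minus C57BL/6J in log2, at each of the 8 probes with 75th percentile scaling (black, with the standard error of the fit), normexp background correction, the authors' matrix, and within each slide. The Ccl21a and Ccl19 points all lie below 0, from -6.55 to -4.94 and from -1.45 to -1.05; those of Ccl27a and Ccr10 lie on both sides of 0.

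Of the 8 probes, 3 passed the threshold used for all probes, the Ccl21a probe and both Ccl19 probes, all lower in BTBR. Over all 30011 probes the share called was 5.44%, the share called lower was 3.25% and the share called higher 2.19%. The strains did not overlap at 4 of the 8, against 22.8% of all probes, with 11% lower and 11.9% higher. Nothing is read from these counts, since the same contrast chose the genes. The 5 remaining probes, of Ccl27a, Il11ra1, Ccr7 and Ccr10, did not pass. In bulk tissue, fewer cells that make an RNA and less of it per cell cannot be told apart. The arrays measured RNA and not DNA, so the number of gene copies in these mice was not measured, and how well the probes match the sequence of BTBR was not tested.

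The position of the probes was then set against their neighbours. In the mm9 coordinates of the files, the Il11ra1 probes lie at chr4:41716152-41716211 and chr4:41716228-41716287 and the Ccl27a probe at chr4:41716763-41716822. The Ccl21a probe lies 516 kb from the nearer Il11ra1 probe, at chr4:42231835-42231894. The Ccl19 probes follow at chr4:42250352-42250411 and chr4:42250432-42250491, the second of them 18.6 kb from the Ccl21a probe. Ccr7 and Ccr10 are on chromosome 11, at chr11:99005513-99005538, a shorter span than the probe, and chr11:101035406-101035465. The annotation gives no exon for these probes. The files place the Ccl21a and Ccl19 probes on the plus strand, while RefSeq GRCm38.p6 has both genes on the minus strand. Over 26609 probes whose gene has a RefSeq strand, the 2 strands were the same for 99.4%. The Il11ra1 and Ccl27a probes were among these.

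Between 40 and 45 Mb of chromosome 4, 132 probes of 82 other genes or transcripts were tested, and limma called 5 lower and 0 higher in BTBR (10 lower and 5 higher at an unadjusted p below 0.05). That is 3.79% of them against 5.44% of all probes, with a median difference of 0.03 against 0.04 over all probes. Only 2 of these probes lie between the Il11ra1 and Ccl19 positions, and 1 of those fell. This probe, A_52_P256507, lies 18.5 kb before the Ccl21a probe at chr4:42213341-42213400. The files name it only by the transcript ENSMUST00000177565, with no gene. It is shown because it is the nearest tested sequence to Ccl21a.
Probe A_52_P256507, bases 16 to 45: agagagcgaatccatccaggaatttctcag

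A_52_P256507 read 0.99, 0.96 and 0.57 in C57BL/6J and -1.85, -2.00 and -1.82 in BTBR. The strains did not overlap, and replicate 3 was again the lowest C57BL/6J array. The difference was -2.73 with a standard error of 0.15 (limma, adjusted p = 0.00021), a 6.64-fold lower signal in BTBR. It was -2.90 within the slide of replicates 1 and 2, and -2.39 on the slide of replicate 3.

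The tested probes nearest to that stretch differed less. Galt, which encodes an enzyme of galactose metabolism and is the nearest tested gene on the Il11ra1 side, differed by 0.20 with a standard error of 0.16 (limma, adjusted p = 0.62). AK143879, the nearest on the Ccl19 side, differed by 0.33 with a standard error of 0.22 (limma, adjusted p = 0.56). Among the nearest 12 tested probes on the Ccl19 side, a number chosen after the values were seen, differences ran from -0.10 to 0.33 and 0 were called by limma (0 also at an unadjusted p below 0.05). On the Il11ra1 side 1 of 12 was called, the probe of Fam219a, a gene of little known function, at -0.89 with a standard error of 0.13 (limma, adjusted p = 0.013). Cntfr, the ciliary neurotrophic factor receptor subunit, which lies on the same side, differed by -0.12 with a standard error of 0.16 (limma, adjusted p = 0.80).

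Arhgef39, a guanine nucleotide exchange factor, at -1.22 and -1.23, and Tmem215, a membrane protein, at -1.15, gave differences near that of Ccl19 and were chosen after their values were seen. They were not called (limma, adjusted p = 0.38, 0.26 and 0.19), and their standard errors ran from 0.38 to 0.59. At the Arhgef39 probe with -1.23, the BTBR mean of -6.90 lay below -6.39, the mean of the lowest measurable levels of the BTBR arrays. Set against that level, the C57BL/6J mean of -5.66 was at least 1.65-fold higher. The other calls in the window were at genes whose probes differed among themselves. Nfx1, a zinc finger transcriptional regulator, was lower by -0.76 at each of 2 probes (limma, adjusted p = 0.0081 and 0.023), while its other probes gave -0.45 and 0.27 and were not called. Unc13b, a synaptic vesicle priming factor, was lower at 1 dim probe by -0.88 (limma, adjusted p = 0.014), while its other probes gave 0.20 and 0.32. The dim probe gave -0.53 with normexp correction (adjusted p = 0.96) and -0.11 in the authors' deposited matrix (adjusted p = 0.30). With normexp, A_52_P256507 was the 1 neighbour still called. The Unc13b call was lost without replicate 1 or 2 of C57BL/6J or replicate 2 of BTBR, and that of Fam219a without replicate 1 of BTBR (adjusted p = 0.066). The weaker Nfx1 call, at A_52_P632191, was lost without any single array except BTBR replicate 3.

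**Figure D3:**
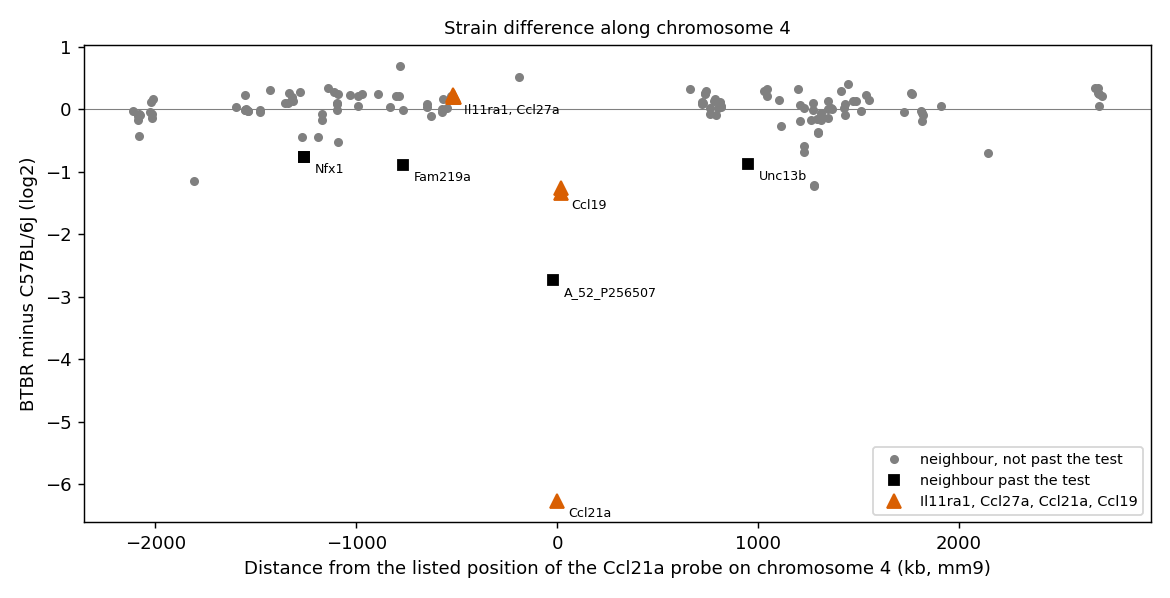
Difference between strains, BTBR minus C57BL/6J in log2, of each tested probe between 40 and 45 Mb of chromosome 4, against its distance in kb from the Ccl21a probe (mm9). Squares are neighbours past the test and triangles are Il11ra1, Ccl27a, Ccl21a and Ccl19; A_52_P256507 at -2.73 lies beside Ccl21a and Ccl19, while Il11ra1 and Ccl27a, 516 kb away, lie near 0.

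The other chemokine ligands were read by 27 tested probes of 20 genes. Of these probes 2 rose and 2 fell, which is 14.8% against 5.44% of all probes. The median difference was -0.15 against 0.04 over all probes. Ccl9, a macrophage-derived chemokine, read -1.90, -2.02 and -1.93 in C57BL/6J and -2.72, -3.05 and -2.89 in BTBR. Its fall of -0.94 (SE 0.12; limma, adjusted p = 0.0077) separated all 6 mice by strain. Pf4, platelet factor 4, read -0.38, -0.76 and -0.54 against -1.62, -1.26 and -1.68, a difference of -0.96 (SE 0.16; limma, adjusted p = 0.022). Ccl24, an eosinophil attractant, was higher at both probes, by 0.93 and 0.92 (SE 0.16 and 0.15; limma, adjusted p = 0.024 and 0.020). These shrank to 0.13 and 0.34 with normexp correction (adjusted p = 0.96 for both) and to 0.24 and 0.36 in the authors' deposited matrix (adjusted p = 0.054 and 0.042). With normexp limma called 0 ligand probes (5 at an unadjusted p below 0.05). Without replicate 1 or 3 of BTBR the count of ligand probes called was 1, and without replicate 1 of C57BL/6J it was 2. Microglia markers, summed over 3 genes that were all well above background on every array, ranged from 2.65 to 2.85 in C57BL/6J and 2.54 to 2.87 in BTBR.

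The other chemokine receptors were read by 18 tested probes of 14 genes, of which 2 probes rose, or 11.1%, and limma called 0 lower (1 at an unadjusted p below 0.05). The median difference was 0.17, and 5.44% of all probes were called. Cx3cr1, the microglial receptor of fractalkine, read 0.99, 1.29 and 1.13 at probe A_52_P99810 in C57BL/6J and 2.32, 2.46 and 2.29 in BTBR. That rise of 1.22 (SE 0.12; limma, adjusted p = 0.0026) was not seen at the same size at its second probe, which differed by 0.23 (SE 0.13; limma, adjusted p = 0.48). With normexp the first probe gave 1.18 (adjusted p = 0.062). Cxcr4, the CXCL12 receptor, was called at a probe near background (0.90; limma, adjusted p = 0.011), well above background on 1 C57BL/6J array and 3 BTBR arrays. With normexp correction its difference was -0.21, and its second probe gave -0.32, so no direction is given. The Cxcr4 call was also lost without replicate 2 of C57BL/6J or replicate 1 of BTBR. Ackr4, the scavenger receptor that takes up CCL19 and CCL21, was not well above background on any array and was not tested.

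Genes of the CCR7 pathway and of lymphoid chemokine control, such as the lymphotoxins, the NF-kB subunit Relb and the G proteins below CCR7, were read by 32 probes of 20 genes. Of these 1 rose, or 3.13%, and limma called 0 lower (1 at an unadjusted p below 0.05), with a median of 0.04. The share called over all probes was 5.44%. The probe that rose belongs to Pik3cg, the phosphoinositide 3-kinase catalytic subunit activated by G protein coupled receptors. It read -3.85, -3.73 and -3.69 in C57BL/6J and -2.55, -2.54 and -2.80 in BTBR, a difference of 1.13 (SE 0.12; limma, adjusted p = 0.0034). With normexp correction the difference was 0.31 and was not called. Without replicate 3 of C57BL/6J the count of probes called was 2.

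Partners of Il11ra1, that is interleukin 11, gp130, the related receptors and the signalling proteins below them, were read by 36 tested probes of 19 genes. Of these 1 rose, or 2.78%, and limma called 0 lower (2 at an unadjusted p below 0.05), with a median of 0.01. The share called over all probes was 5.44%. Without any single array except C57BL/6J replicate 3, limma called 0 (4 to 7 at an unadjusted p below 0.05). Il6st, which encodes gp130, gave 1.39, 1.47 and 1.66 in C57BL/6J and 1.13, 1.07 and 1.27 in BTBR, with no overlap but no call (-0.35, SE 0.12; limma, adjusted p = 0.20). Il11 itself differed by -0.22 (SE 0.20; limma, adjusted p = 0.69).

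**Figure D4:**
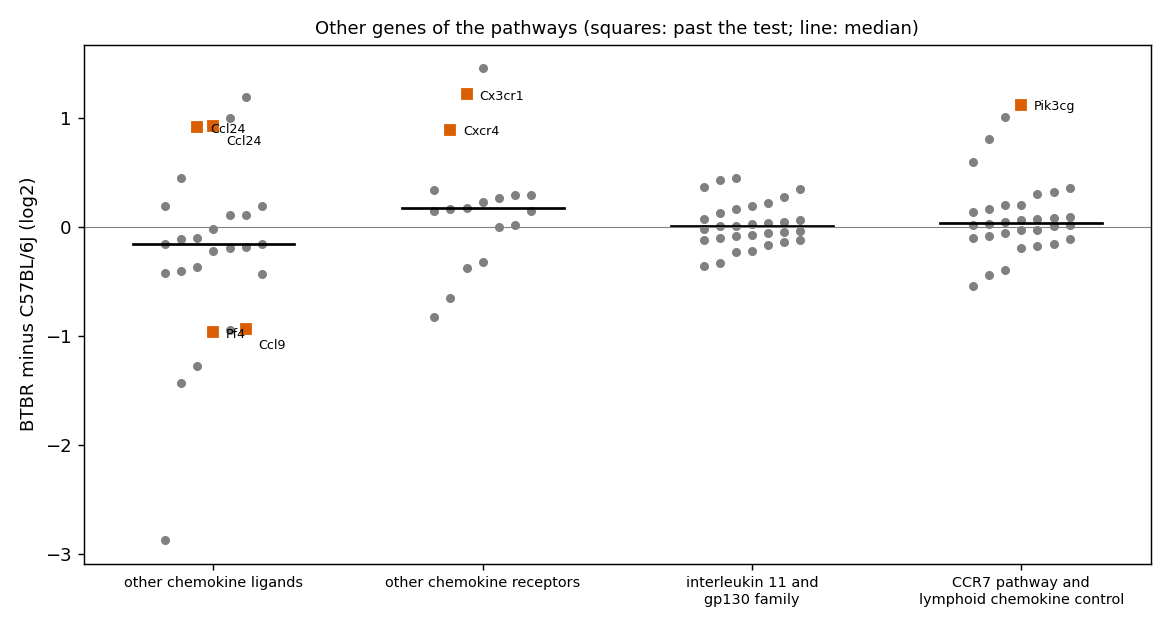
Difference between strains, BTBR minus C57BL/6J in log2, of tested probes in the 4 lists of related genes, with the probes past the test as orange squares and the median over all tested probes of the list as a line. The medians are -0.15, 0.17, 0.01 and 0.04; the 7 called probes drawn lie between -0.96 and 1.22, and those of 1 gene of the third list are not drawn.

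Markers of the cells known to make these chemokines ranged from dim to bright. For lymphatic endothelium 4 of 5 markers were above background on each array and 0 were called by limma (1 at an unadjusted p below 0.05), with summed levels of 1.72 to 2.20 in C57BL/6J and 2.21 to 2.39 in BTBR. For lymphoid stroma and dendritic cells 6 of 8 were, and 0 were called by limma (1 at an unadjusted p below 0.05), with summed levels of 2.88 to 3.02 and 2.76 to 3.09, and Ms4a1 was not well above background on any array. Itgax, a dendritic cell integrin, averaged -4.80 in C57BL/6J and -6.15 in BTBR, where no array read it well above background, and it was not called (limma, adjusted p = 0.099). The lymphatic sum is mostly Reln, which cortical neurons also express and which averaged 1.84 in C57BL/6J and 2.22 in BTBR. Prox1, the next brightest of these markers, averaged -2.25 and -2.35. The sum therefore says little about lymphatic endothelium. Meningeal fibroblast markers summed to 2.75 to 3.03 in C57BL/6J and 2.56 to 2.64 in BTBR, and oligodendrocyte markers to 6.46 to 6.80 and 6.18 to 6.26. Choroid plexus markers stood high on 1 array, C57BL/6J replicate 1, at 2.57 against -2.21 to -0.16 elsewhere. Skin epithelium markers, for the known source of CCL27, summed to 0.92 to 2.15 in C57BL/6J and 0.88 to 1.17 in BTBR. Nearly all of this sum is Krt10. Krt5 and Krt14 were dim, averaging -5.15 and -4.94 in C57BL/6J and -5.08 and -4.75 in BTBR. Blood endothelium markers summed to 3.01 to 3.48 and 2.71 to 3.20, and astrocyte markers to 4.24 to 4.29 and 3.89 to 4.28. Within the astrocyte list Gfap, the intermediate filament of astrocytes, fell by 1.21 (SE 0.19; limma, adjusted p = 0.015). The part of these cell types in the differences at Ccl21a and Ccl19 was not tested.

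Finally, genes whose pattern over the 6 arrays was most like that of the Ccl21a probe were looked for among 29202 probes. By Pearson's r they included Rnf41, Atraid, Cdc40 and Slc35a5, with r from 0.9987 to 0.9995, none of these on chromosome 4. The gap between strains makes up most of this likeness. Cdc40, a splicing factor, had the widest gap of these, at -2.00, -1.85 and -2.68 in C57BL/6J and -5.69, -5.89 and -5.75 in BTBR, and Atraid the narrowest, with a difference of -0.59.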

How the data were processed

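The deposited scanner files hold spot intensities of 6 one-colour arrays, and per the file headers they were made with Agilent Feature Extraction 10.7.3.1 on mm9 positions, where the submitters' processing notes give version 9.1. The intensity used is the authors' background-corrected processed signal. Labelling started from 0.5 µg of RNA with an integrity number of 9, per the labels. Spots flagged as outliers and control spots were left out, repeated spots of a probe were averaged, and the 75th percentile of each array was subtracted from the log2 values. Probes entered the test when 3 or more of the 6 arrays read them well above background. The strain contrast was fitted in R 4.3.3 with limma 3.58.1, as BTBR minus C57BL/6J by lmFit and eBayes, and p-values were adjusted by Benjamini-Hochberg over the 30011 probes entered, at a threshold of 0.05. Intervals are 95%. The SD measures the spread between 3 mice a strain. Standard errors, intervals and p-values come from the limma fit, whose variance for a probe also draws on the other probes entered.

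The authors' deposited matrix of log2 values has column medians of 8.82 to 8.83 and correlates at 0.92 to 0.93 with the scanner log2 levels (Pearson's r across probes, 41174 probes an array). Strain differences in the matrix and the scanner values correlate at r = 0.79 over the tested probes, with a slope of 0.37; its scaling stays unknown.

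The members, the lists of related genes and the cell markers were chosen with earlier results of these data known. Named were every member probe, every called gene of the lists, the nearest tested neighbours, Ackr4, Il11, Il6st and Cntfr, and the 5 patterns most like Ccl21a; 2 genes that this rule names are not reported here. Symbols were updated through RefSeq accessions and synonyms, and 4 of the 6 members with a probe matched the RefSeq promoter table of GRCm38.p6. Tested on simulated data of 30011 probes, the fit found 5.97% of 1.5-fold, 37.3% of 2-fold and 80.3% of 4-fold changes, and 5.75% of its calls were false.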

Additional observations from a re-analysis of the deposited data

How the results depend on the processing

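In each alternative tested 3 member probes passed the threshold, all lower in BTBR, except that taking the brightest probe of each gene left 2. The filter for all 6 arrays and the brightest probe each tested 6 member probes, the other settings 8. Nothing is read from these member counts, since the same contrast chose the genes. Over all probes the count of 1632 became 170 with normexp (126 lower, 44 higher), 906 with the brightest probe of each gene, 922 with the replicate block, and 858 to 1472 on leaving out each array in turn, the lower ones being 951 and 888 without replicates 1 and 2 of C57BL/6J and 858 without replicate 1 of BTBR. With normexp the median of all differences was -0.09 in place of 0.04. Neighbours called, 5, became 1 with normexp, 1 with the brightest probe, 2 with the replicate block and 3 to 5 without each array; A_52_P256507 kept its call wherever it was tested (adjusted p from 2.3e-05 to 0.0046). Ligand probes called, 4, became 0 with normexp (5 at an unadjusted p below 0.05), 2 with no filter on dim probes, 1 with the replicate block and 1 to 4 without each array. Receptor probes called, 2, became 0 with normexp (2 unadjusted), and 1 with the filter for all 6 arrays, with the authors' matrix and with the replicate block, and were 1 to 2 without each array; Cxcr4 reversed to -0.21 with normexp. Interleukin 11 family probes called, 1, became 2 with quantile normalization and with the authors' matrix, and 0 with normexp (2 unadjusted), no filter (6), the brightest probe (4), within slide 1 (9) and the replicate block (5), and were 0 to 1 without each array. CCR7 pathway probes called, 1, became 0 with normexp (0 unadjusted), were 2 with the filter for all 6 arrays, the brightest probe, the slide as a block and within slide 1, and 1 to 2 without each array. These counts are limma's, and the cause was not tested. Same-numbered mice did not deviate together (r = 0.03, -0.17 and -0.08), and the main fit used no pairing. With 3 mice a strain these values do not settle whether the mice were matched by number, and replicates 1 and 2 shared a slide. Within slide 2 there is 1 array a strain and no test. Both receptors lie near background, which limits their values.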

Other observations

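Some chemokine values that did not pass the test, picked after they were seen, are given here as values. Cxcl10, an interferon-induced attractant of T cells, read -5.21, -2.71 and -3.51 in C57BL/6J and was not well above background on any BTBR array. Its C57BL/6J mean of -3.81 was at least 5.04-fold higher than in BTBR, taking for each BTBR array the higher of its lowest measurable level and the probe's own level (limma, adjusted p = 0.065). Ccl17, a ligand of CCR4, read 0.09, 0.28 and -0.81 in C57BL/6J and 1.14, 1.06 and 0.94 in BTBR, a difference of 1.19 (SE 0.28; limma, adjusted p = 0.074). Pdpn, podoplanin, a membrane protein of lymphatic endothelium and lymphoid stroma, differed by 1.01 and 0.81 at its 2 probes (SE 0.24 and 0.17; limma, adjusted p = 0.071 and 0.051), with no overlap between strains at either. The other lymphatic markers, Lyve1, Prox1, Flt4 and Reln, differed by 0.04, -0.11, -0.07 and 0.39, none of them called by limma.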
